A study of Mus musculus with 115 samples.

Results

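The response of inguinal adipose tissue to estradiol was measured in gonadectomised mice of the ovary line, meaning mice without the testis-determining gene Sry. The comparison took 10 arrays of mice with an estradiol capsule (E) and 8 arrays of mice with a blank capsule (B), which is 18 of the 115 arrays of the series. The arrays were chosen by tissue, genotype and treatment in their titles. They were 5 XX E, 3 XX B, 5 XY- E and 5 XY- B arrays.

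The study used FCG mice on a C57BL/6J background, in which Sry is deleted from the Y chromosome (written XY-) and can be carried instead as a transgene on an autosome. XX and XY- mice develop ovaries, and XXSry and XY-Sry mice, the testis line, develop testes. All mice, blank controls included, had their gonads removed at 75 days of age and received a Silastic capsule at once, and the tissue was taken 3 weeks later. The blank capsule held adhesive only, whereas the estradiol capsule held 50 µg of 17beta-estradiol in 25 µl of sesame oil, so the oil was not matched between the groups. The ovaries had been present until surgery in every mouse of the ovary line, and the adrenal glands and other tissues that can make steroids remained. For XX E replicate 1 the title gives estradiol and the agent field gives testosterone. It was kept as estradiol, and its Akr1cl, Mmd2 and Greb1 levels lay among those of the other estradiol arrays. The labels do not say that each array is a separate animal, so the p-values measure the spread between these arrays.

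Estradiol acts through the receptors ESR1 and ESR2, which bind DNA as ligand-activated transcription factors, and through the membrane receptor GPER1. Subcutaneous fat responds to it in the adipocytes, and estrogens are known to restrain fat storage. In female mice the inguinal pad also holds a mammary gland, a ductal tree of luminal and basal epithelial cells whose growth at puberty depends on estradiol and on its target amphiregulin. A lymph node lies in the pad, and skin and body wall muscle lie next to it.

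The levels below are normalised log2 intensities, so a difference of 1 is a doubling, and differences of dim probes are understated. They belong to single probes and are not compared between genes. A probe was called when its adjusted p was under 0.05 (limma, Benjamini-Hochberg over the 14636 probes tested, which carry 10743 symbols). Estradiol was called to change 1502 probes in the ovary line, which is 10.3% of those tested, 751 higher (5.13%) and 751 lower (5.13%). With arrays centred on their median in place of quantile normalisation, 915 probes were called, 551 higher and 364 lower, or 60.2% higher in place of 50.0%. At least 2-fold differences were found for 314 of the higher and 159 of the lower probes. All 10 estradiol arrays lay above all 8 blank arrays for 129 probes (0.881%) and below them for 53 (0.362%). The median signal of the 18 arrays before normalisation ran from 133 to 229, and 40.5% to 49.0% of all probes were detected on an array.

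Transcripts of several genes rose by more than 10-fold. Akr1cl, an aldo-keto reductase family gene, had the largest increase. Its lowest, median and highest levels were 4.67, 6.01 and 7.40 in the blank arrays and 11.63, 12.33 and 13.27 in the estradiol arrays. The difference was 6.31 ± 0.37 (SE; adjusted p = 8.61e-18 in limma), or 79.2-fold. Mmd2, a membrane protein gene of the progestin and adipoQ receptor family, went from 5.04, 6.86 and 8.72 to 11.41, 12.26 and 13.05, a difference of 5.39 ± 0.41 (adjusted p = 6.44e-14). The groups did not overlap for either gene.

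Greb1, a chromatin-bound cofactor of the estrogen receptor and a classical target of it, was near background in blank mice and rose in every comparison. Its lowest, median and highest levels were 4.57, 5.07 and 5.91 in the blank arrays and 8.40, 8.84 and 9.15 in the estradiol arrays. The difference was 3.55 ± 0.20 (adjusted p = 5.38e-18), and the arms were further apart than the spread within either. The probe was detected on 1 of 8 blank and 10 of 10 estradiol arrays. Prtn3, which encodes the serine protease proteinase 3, went from 6.73, 7.15 and 8.89 to 10.22, 11.16 and 11.52, a difference of 3.61 ± 0.25 (adjusted p = 2.28e-15), again with no overlap. Adamts19, a secreted metalloprotease gene, was detected on no blank array and on 10 of 10 estradiol arrays, which makes it at least 5.27-fold higher. For such genes the bound sets the mean of the bright arrays against the dimmest signal called detected on each array of the dim group, and the fitted difference is no bound.

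These genes rose as well in the testis line, where 18 arrays gave the same estradiol minus blank comparison. There the differences were 6.26 ± 0.36 for Akr1cl, 6.11 ± 0.41 for Mmd2, 2.83 ± 0.20 for Greb1, 2.84 ± 0.24 for Prtn3 and 4.16 ± 0.22 for Adamts19. None of the 5 differed between the lines at the threshold, with adjusted p from 0.0908 for Adamts19 to 0.9995 for Akr1cl in the test of the difference. Across all probes, 1486 were called in the testis line (10.2%), and 727 were called with the same sign in both lines, 48.4% of the ovary-line calls and 48.9% of the testis-line calls. Another 5 were called with opposite signs.

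The gene starts of 4 of these genes are shown with the letters that make up an estrogen response element, because they stand for the main kinds of response. The full element was searched as GGTCA and TGACC with 3 bases of any kind between them, which reads the same on both strands, and each arm of it alone as GGTCA or TGACC. The windows are 300 bases around a RefSeq gene start of assembly GRCm38.p6, written 5′ to 3′ on the strand of the gene, with single arms in capitals. They are Akr1cl (chr1:65032710-65033009, minus strand), Greb1 (chr12:16800837-16801136, minus strand, the upstream of 2 listed starts), Areg (chr5:91139349-91139648, plus strand) and Cyp2f2 (chr7:27119705-27120004, plus strand). Akr1cl and Greb1 rose in both lines, Areg rose in the ovary line and Cyp2f2 had the largest fall.
Akr1cl: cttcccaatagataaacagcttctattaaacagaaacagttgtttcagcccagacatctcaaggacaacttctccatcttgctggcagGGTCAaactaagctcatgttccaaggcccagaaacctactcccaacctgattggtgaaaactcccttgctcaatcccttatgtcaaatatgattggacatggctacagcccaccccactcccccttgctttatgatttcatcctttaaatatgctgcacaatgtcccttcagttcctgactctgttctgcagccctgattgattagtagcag
Greb1: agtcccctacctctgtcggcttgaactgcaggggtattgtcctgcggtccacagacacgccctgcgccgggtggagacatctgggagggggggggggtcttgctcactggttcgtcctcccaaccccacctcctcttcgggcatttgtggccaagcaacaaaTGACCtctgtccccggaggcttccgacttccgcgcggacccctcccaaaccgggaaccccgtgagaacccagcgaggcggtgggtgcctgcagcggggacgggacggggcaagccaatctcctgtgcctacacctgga
Areg: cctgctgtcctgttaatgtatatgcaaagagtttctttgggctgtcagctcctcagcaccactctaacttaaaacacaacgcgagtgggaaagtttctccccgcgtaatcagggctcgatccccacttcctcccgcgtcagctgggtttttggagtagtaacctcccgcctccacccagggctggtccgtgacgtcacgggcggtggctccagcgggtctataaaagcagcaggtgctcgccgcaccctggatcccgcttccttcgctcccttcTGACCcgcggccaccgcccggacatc
Cyp2f2: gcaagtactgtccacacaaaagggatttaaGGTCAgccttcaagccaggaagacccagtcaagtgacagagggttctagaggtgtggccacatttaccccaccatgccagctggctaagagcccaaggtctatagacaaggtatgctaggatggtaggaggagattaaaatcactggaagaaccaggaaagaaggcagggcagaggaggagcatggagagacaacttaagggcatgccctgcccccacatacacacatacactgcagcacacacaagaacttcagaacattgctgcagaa
Each window held 1 arm and none held the full element. The full element was in 23 of 32851 promoters of the table and in none of the matched genes called higher or lower. An arm was in 43.5% of the 471 matched genes called higher, in 40.5% of the 529 called lower and in 43.6% of the 8267 tested genes with a promoter. These letters are a description of short windows and say nothing of receptor binding there or elsewhere.

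A second set of large increases appeared in the ovary line and differed from the testis line. Tph1, which makes the first and rate-limiting enzyme of serotonin synthesis outside the brain, went from 4.77, 4.94 and 8.56 (lowest, median and highest blank array) to 10.42, 11.40 and 11.99 with estradiol. The difference was 5.67 ± 0.50 (adjusted p = 4.77e-12), against -0.22 ± 0.49 in the testis line, and the test of the difference gave an adjusted p of 9.53e-08. Areg, which encodes amphiregulin, a ligand of the epidermal growth factor receptor, went from 4.61, 4.88 and 8.20 to 8.97, 10.18 and 10.59, a difference of 4.47 ± 0.44 against -0.09 ± 0.43 in the testis line (adjusted p of the difference 1.62e-06). No estradiol array overlapped a blank array for either gene.

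Aoc1, listed on the array as Abp1, encodes the histamine-degrading diamine oxidase. It rose by 4.79 ± 0.47 in the ovary line and differed by 0.13 ± 0.46 in the testis line (adjusted p of the difference 4.84e-06). Cxcl15, an epithelial chemokine gene, rose by 4.05 ± 0.63 against -0.20 ± 0.62. Esrrb, an orphan nuclear receptor gene related to the estrogen receptors, rose by 3.43 ± 0.31 against 0.01 ± 0.30. Sftpd, the gene of the secreted lectin surfactant protein D, was detected on no blank array and on 10 of 10 estradiol arrays, at least 6.14-fold higher. In these 4 genes all estradiol arrays lay above all blank arrays.

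Krt6b, a keratin of stratified epithelia, rose by 3.36 ± 0.32 against -0.19 ± 0.31 in the testis line. Its arms overlapped, with blank arrays up to 7.58 and an estradiol array, XY- E replicate 3, at 6.07. Dpep2, a dipeptidase gene of leukotriene metabolism, rose in both lines, by 3.49 ± 0.38 and 1.35 ± 0.37, and the increase was larger in the ovary line (adjusted p of the difference 0.0299). These Dpep2 values belong to the probe with the largest difference, which was not the brightest tested probe of the gene.

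Genes with the smallest p in the test between lines included Sftpd and Lypd3, a surface protein of squamous epithelium, which rose by 2.84 ± 0.25 in the ovary line. Phactr1, an actin and phosphatase regulator, was detected on no blank array and on 10 of 10 estradiol arrays and was at least 1.56-fold higher. Tmprss11a, an epithelial serine protease, was detected on the same counts of arrays and was at least 3.31-fold higher. In the testis line these 4 genes differed by less than 0.5, between -0.34 ± 0.25 for Lypd3 and 0.20 ± 0.18 for Tmprss11a. The test between lines called 122 probes, or 0.834%. Of these, 82 had the lower difference in the testis line and 40 the higher.

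**Figure D1:**
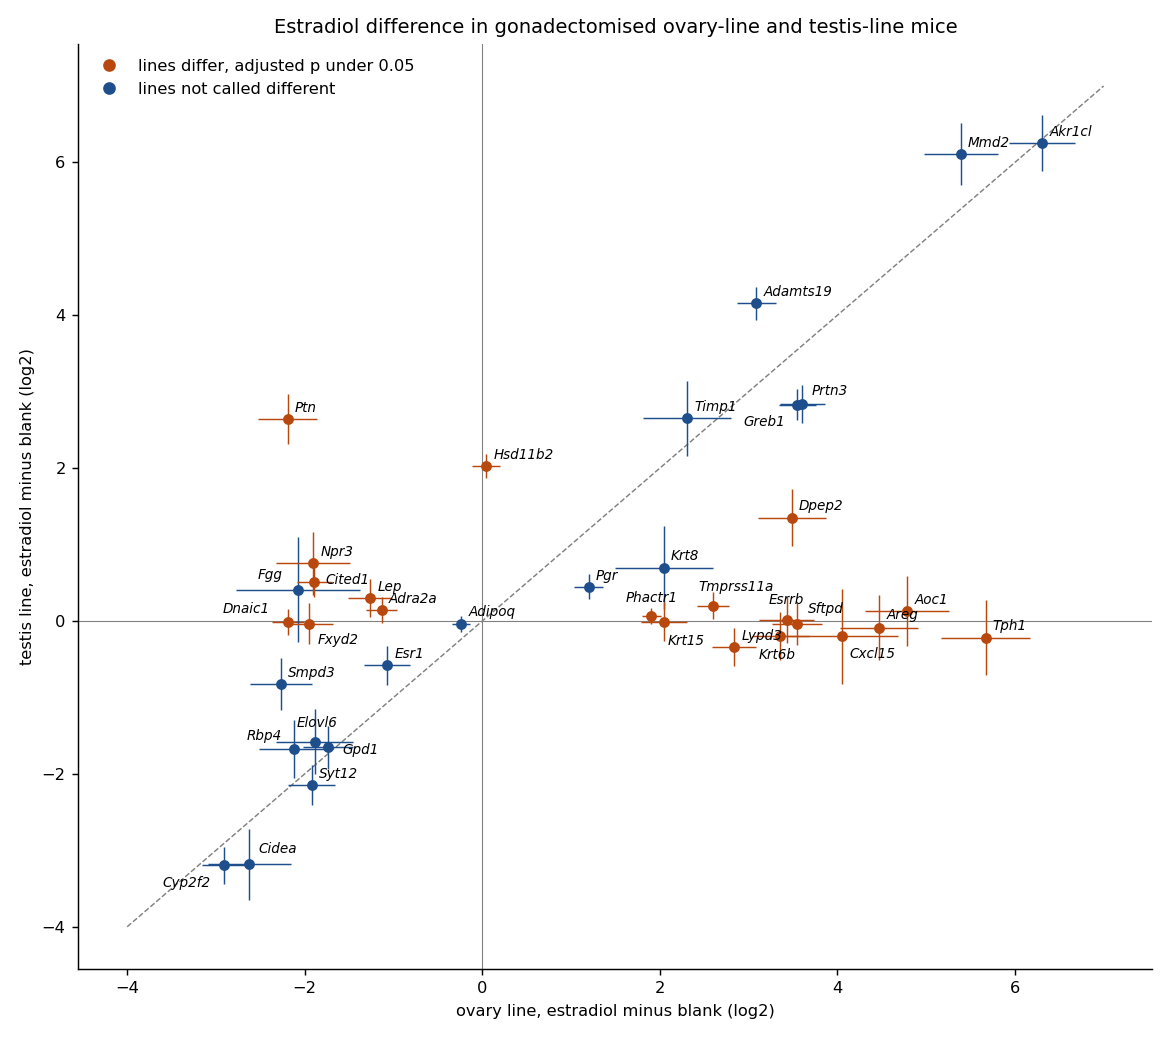
Estradiol minus blank difference in the ovary line (horizontal, log2) against the testis line (vertical, log2) for named genes, with SE bars from limma; orange marks genes whose difference between the lines had an adjusted p under 0.05, and the dashed line marks equal differences. Akr1cl and Mmd2 lie near the dashed line at about 6, Tph1 lies at 5.67 on the horizontal axis and -0.22 on the vertical axis, and Ptn lies at -2.19 and 2.65.

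One blank array stood apart in the genes with the largest increases. XX B replicate 1 was the highest of the 8 blank arrays in 10 of the 12 genes with the largest increases, with Tph1 at 8.56 where the next blank array was at 5.48, and Areg at 8.20 where the next was at 5.56. Without that array the differences were 6.20 for Tph1, 4.98 for Areg and 5.24 for Aoc1, each larger than with it.

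**Figure D2:**
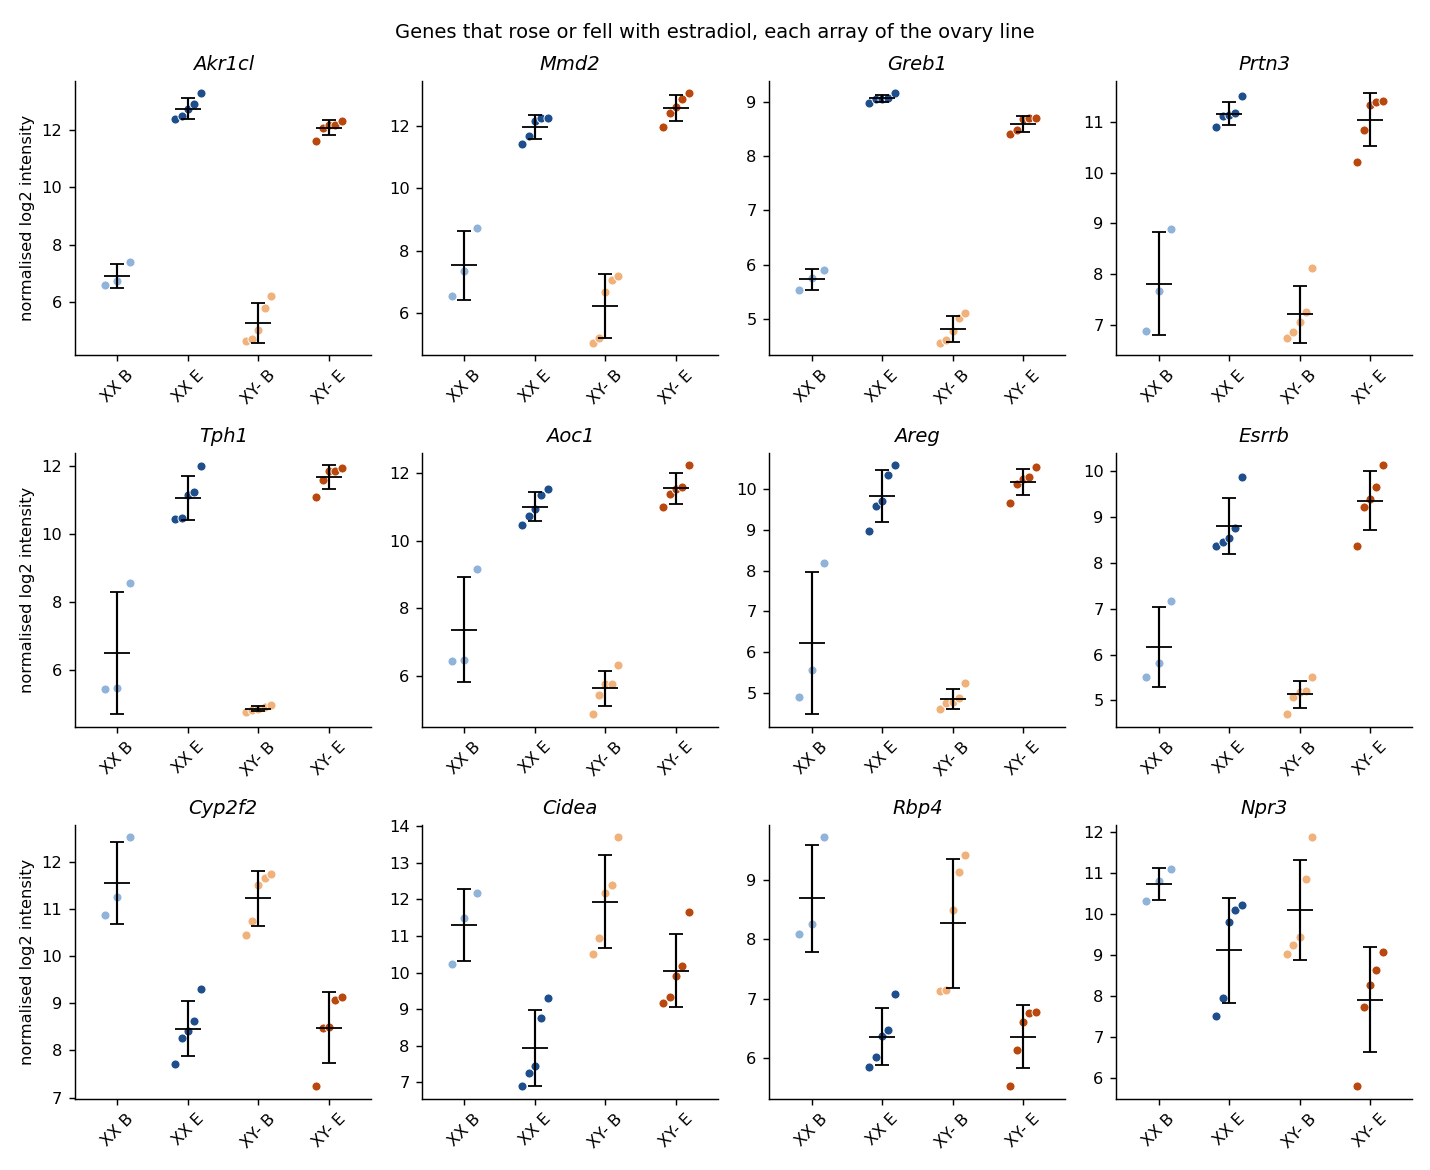
Normalised log2 intensity of 12 genes in each of the 18 arrays, by genotype and treatment (B blank, E estradiol); points are arrays, and the bar and whiskers are the mean and SD of the group. All estradiol arrays lie above all blank arrays in the upper 8 panels, and below them for Cyp2f2 and Rbp4; the single high point of XX B in Tph1, Aoc1 and Areg is replicate 1.

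A minority of the epithelial marker genes rose with estradiol, where 5.13% of all probes were called higher and 5.13% lower. Of 22 tested genes of luminal epithelium, 7 rose and 0 fell, with a median difference of 0.59 against -0.01 over all tested probes. Krt8, a keratin of luminal cells, was at 8.55, 9.73 and 11.58 in the blank arrays and at 11.48, 12.02 and 13.09 with estradiol, a difference of 2.04 ± 0.55 (adjusted p = 0.01002), and the arms overlapped by 1 blank array. Krt19, another luminal keratin, rose by 2.10 ± 0.47 with no overlap, and Krt7 rose by 1.33 ± 0.30. The 7 also included Esrp1, Spint1 and St14, whose calls depended on single arrays. They were lost without any 1 of 12, 10 and 3 arrays, with adjusted p up to 0.370, 0.209 and 0.104. Krt18, the partner of Krt8, differed by 0.83 ± 0.50 (adjusted p = 0.350) and was not called. In a fit of only the 18 arrays compared it was called, at 0.81 (adjusted p = 0.0431).

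Among 13 tested genes of basal and myoepithelial cells 5 rose and 0 fell (median 0.52). They included Sfn, encoding the 14-3-3 protein stratifin (1.89 ± 0.27), Col17a1, a hemidesmosome collagen (1.77 ± 0.37), Lamb3, a basement membrane laminin (1.47 ± 0.21), and Trp63, the transcription factor p63 of basal cells (0.96 ± 0.23). Sfn, Lamb3 and Trp63 differed between the lines (adjusted p of the difference 2.81e-05, 0.0320 and 0.000513). Krt14, the basal keratin, differed by 0.91 ± 0.61 (adjusted p = 0.417), and was called at 0.90 in the fit of only the 18 arrays (adjusted p = 0.0229). Of 8 tested milk secretory genes, Tph1 alone rose, and Csn3, kappa casein, differed by 0.64 ± 0.65 (adjusted p = 0.642). Mcm7, a replication licensing gene, was the only one of 19 tested cell cycle genes called higher, by 0.91 ± 0.24, a count near the share over all probes. Epcam and Csn2 were not tested because their probes did not pass the filter on detection.

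A score of epithelial content was taken as the mean level of 9 tested epithelial genes. It ran from 6.95 to 8.88 in the 8 blank arrays and from 8.23 to 9.13 in the 10 estradiol arrays. In the testis line it ran from 4.98 to 7.07 with either capsule, so it lay lower there. In bulk tissue, fewer cells of a type and less RNA per cell cannot be told apart.

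Probes were then classed by how their level followed this score, in the 37 adipose arrays that were not part of the contrast. These were the testosterone arrays of the ovary line and all arrays of the testis line. A probe tracked the epithelium where its residual correlation with the score, after its group means were removed, was 0.6 or more. This is a description over arrays that share tissue composition. Only 85 of the tested probes tracked it (0.581%). Of these 24 were among the 751 called higher and 6 among the 751 called lower. Krt8 (correlation 0.94), Krt19 (0.81), Krt7 (0.77), Cxcl15 (0.76), Stc2 (0.70) and Areg (0.66) tracked it. Tph1 (0.53), Esrrb (0.52), Sftpd (0.50) and Aoc1 (0.46) fell short of the limit, and Akr1cl (-0.07), Prtn3 (0.22), Greb1 (0.29) and Mmd2 (0.37) lay lower. These classes rest on arrays with little epithelium in the testis line, where several of the genes were near background. In the testosterone arrays of the ovary line Tph1, Areg and Sftpd were low as well, with means of 5.17, 5.42 and 4.88. A gene near background can follow the score only weakly, so a low correlation does not tell which cells hold its transcript.

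With the score as a covariate in the fit, the differences of Krt8, Krt7 and Krt19 were at most 0.5 times as large, and those of the genes with the largest increases changed less. Krt8 went from 2.04 to 0.56 (adjusted p = 0.164) and was no longer called, which its membership in the score brings about in part. Krt7 went from 1.33 to 0.64 and Krt19 from 2.10 to 1.02, and both kept their calls (adjusted p = 0.0418 and 0.0311). Krt6b (3.36 to 3.22) and Krt15 (2.05 to 1.88 in fitted difference) moved little. Cxcl15 went from 4.05 to 2.73 (adjusted p = 0.000101), Areg from 4.47 to 3.69, Tph1 from 5.67 to 4.95 (adjusted p = 1.31e-10) and Aoc1 from 4.79 to 4.22. The slope on the score comes from the spread within groups, and genes such as Tph1 and Areg were near background in most groups. Their small change in this fit therefore does not tell whether their increase lay in the epithelium. Akr1cl, at 6.42, Greb1, at 3.40, and Mmd2, at 4.93, kept their calls. In this fit 1417 probes were called, 605 higher and 812 lower, and 1184 of them were calls without the covariate. The share of higher calls was 42.7%, against 50.0% without it.

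**Figure D3:**
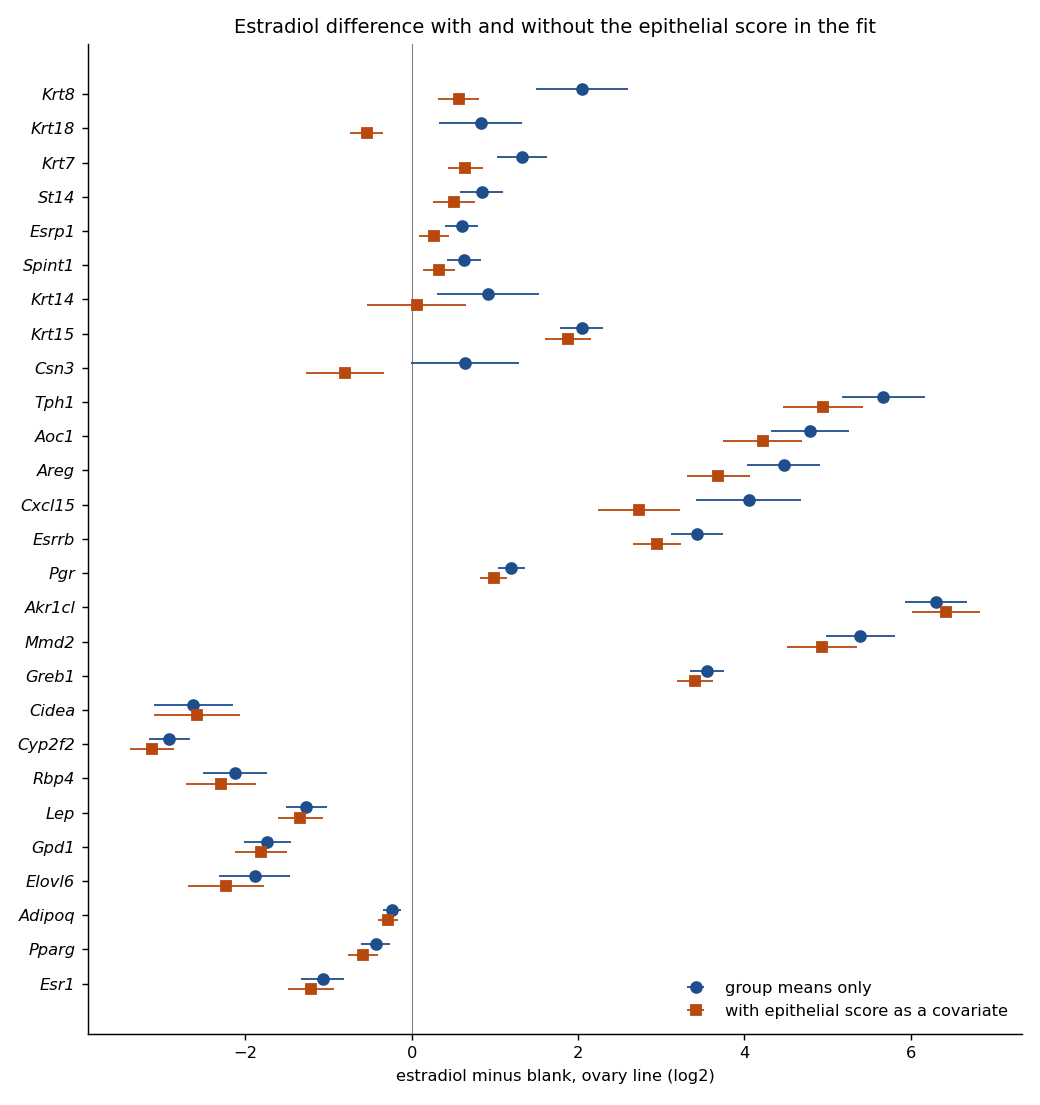
Estradiol minus blank difference in the ovary line (log2, with SE bars) from the fit of group means (blue circles) and from the fit with the epithelial score as a covariate (orange squares). Krt8, Krt7, Krt18, Krt14 and Csn3 move toward or past 0, Tph1, Aoc1, Areg, Cxcl15 and Esrrb move down and stay above 2, and Akr1cl, Greb1 and the genes below 0 stay close to their first value.

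Part of the genes of adipocyte lipid metabolism fell. Of 27 tested genes of fatty acid and triglyceride synthesis, 10 fell and 2 rose, with a median difference of -0.56. Over all probes 5.13% were called each way. Elovl6, the elongase of palmitate, was at 11.79, 12.89 and 13.89 in the blank arrays and at 9.89, 11.34 and 12.55 with estradiol, a difference of -1.89 ± 0.43 (adjusted p = 0.00203), and the arms overlapped. Acss2, which makes acetyl-CoA from acetate, fell by 1.60 with an SE of 0.30, and all estradiol arrays lay below all blank arrays, 10.72 to 12.61 against 12.76 to 13.68. Aacs, acetoacetyl-CoA synthetase, differed by -1.16 ± 0.23, and Insig1, a sterol-regulated brake on lipid synthesis, by -1.39 ± 0.42 (adjusted p = 0.0247). The Elovl6 difference was -1.55 (adjusted p = 0.128) on the 2 slides that hold estradiol and blank arrays of every genotype. Gpam, the acyltransferase that begins triglyceride synthesis, rose by 1.30 ± 0.28, and G6pdx, the first enzyme of the pentose phosphate pathway, by 0.78 ± 0.23. Insig1 was not called without any 1 of 4 arrays (XX B replicates 1 and 3, XY- B replicate 2 and XY- E replicate 4; adjusted p up to 0.0724), nor G6pdx without XX B replicate 1 (adjusted p = 0.0969).

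Of 23 tested genes of adipocyte identity, 4 fell and 0 rose (median -0.32), where 5.13% of all probes were called lower. Gpd1, glycerol-3-phosphate dehydrogenase, went from 10.41, 11.45 and 12.03 to 7.95, 9.42 and 10.73, a difference of -1.74 ± 0.28 (adjusted p = 1.96e-05). Aqp7, the glycerol channel of adipocytes, differed by -0.86 ± 0.20 and Pnpla2, adipose triglyceride lipase, by -0.41 ± 0.11. Defining transcripts of the adipocyte were not called. Adipoq, adiponectin, differed by -0.24 ± 0.11 (adjusted p = 0.157), Pparg, the master regulator of adipogenesis, by -0.43 ± 0.17 (adjusted p = 0.104) and Fabp4, the fatty acid binding protein, by -0.32 ± 0.39 (adjusted p = 0.720). Fabp4 was called with slide as a fixed block, at -0.75 (adjusted p = 0.0105), and on the 2 shared slides, at -1.004 (adjusted p = 0.0485), whereas without XX B replicate 1 it was at 0.00929. Pparg was called at -0.45 to -0.58 under 6 alternatives, namely array weights, each of the 3 sets of covariates, without XY- B replicate 1 and without 3 arrays (adjusted p 0.0133 to 0.0297). The mean of the list ran from 11.10 to 12.28 in the blank arrays and from 10.85 to 11.82 in the estradiol arrays.

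Lep, the gene of the satiety hormone leptin, fell in the ovary line. Its lowest, median and highest levels were 12.21, 13.19 and 13.97 in the blank arrays and 10.38, 12.20 and 12.74 with estradiol, a difference of -1.26 ± 0.25 (adjusted p = 0.000383). In the testis line it differed by 0.30 ± 0.25, and the lines differed (adjusted p = 0.00837). Among 17 tested adipokine genes 4 fell and 2 rose, where 5.13% of all probes were called each way. Rbp4, the retinol transporter of plasma, fell without overlap, by -2.13 ± 0.39 on the log2 scale, Nrg4, a secreted growth factor of brown fat, differed by -1.09 ± 0.23 and Rarres2, the chemoattractant chemerin, by -0.77 ± 0.19. Hp, haptoglobin, an acute phase protein that adipocytes also secrete, rose from 11.72, 12.29 and 13.03 to 13.57, 13.91 and 14.78, a difference of 1.63 ± 0.18 (adjusted p = 2.11e-09) with no overlap. Apoe, a lipoprotein component, rose by 0.65 ± 0.19, and was not called without XX B replicate 1 (adjusted p = 0.0915).

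Of 19 tested genes of lipolysis and adrenergic signalling, 9 fell and 0 rose (median -0.50), where 5.13% of all probes were called lower. Receptors that curb lipolysis were among them. Adora1, the adenosine receptor, differed by -1.33 ± 0.23, Adra2a, the alpha-2A adrenergic receptor, by -1.13 ± 0.17 and Ptger3, a prostaglandin E receptor, by -0.99 ± 0.29. Ptger3 was not called without XX B replicate 1 or without XX B replicate 3 (adjusted p up to 0.0624). Adra2a differed by 0.15 ± 0.17 in the testis line (adjusted p of the difference 0.000846). Npr3, the clearance receptor of natriuretic peptides, went from 9.03, 10.56 and 11.88 to 5.80, 8.46 and 10.22, a difference of -1.91 ± 0.42 (adjusted p = 0.00132), against 0.76 ± 0.41 in the testis line (adjusted p of the difference 0.00675).

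Of 17 tested genes of brown and beige fat 5 fell and 0 rose, with a median of -0.81, where 5.13% of all probes were called lower. Cidea, a lipid droplet protein of thermogenic fat, went from 10.23, 11.82 and 13.70 to 6.92, 9.25 and 11.66, a difference of -2.62 ± 0.47 (adjusted p = 9.28e-05), and by -3.18 ± 0.46 in the testis line. Kcnk3, a potassium channel gene of thermogenic fat, differed by -1.36 ± 0.37 and Ppargc1a, the coactivator of mitochondrial biogenesis, by -1.14 ± 0.32. Ucp1, the uncoupling protein of brown fat, was detected on 6 of 8 blank arrays, whose levels ran from 4.61 to 13.10, and on none of the 10 estradiol arrays. Against the detection bound it was lower by at least 4.72-fold (adjusted p = 0.0540, not called). It was called under 7 alternatives, namely median centring, array weights, the muscle, lymph node and liver covariates, only the groups compared, and without XY- B replicate 1, XY- B replicate 3 or XX B replicate 1, with adjusted p from 0.00319 to 0.0484. Of 18 tested genes of mitochondrial fatty acid oxidation, 3 fell and 0 rose, namely Decr1 (-0.85 ± 0.25), Acads (-0.71 ± 0.19) and Cpt2 (-0.57 ± 0.15), enzymes of the beta-oxidation path and of fatty acid import. Without XX B replicate 1 Kcnk3 (adjusted p = 0.0506) and Decr1 (adjusted p = 0.0666) were not called, nor Ppargc1a without XX B replicate 3 (adjusted p = 0.0604).

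The largest fall of all was that of Cyp2f2, a cytochrome P450 known from airway cells and liver. It went from 10.45, 11.38 and 12.52 to 7.24, 8.48 and 9.30, a difference of -2.91 ± 0.25 (adjusted p = 1.91e-12), with no overlap, and of -3.20 ± 0.24 in the testis line. Smpd3, neutral sphingomyelinase, differed by -2.27 ± 0.35, and Syt12, a synaptotagmin, by -1.92 ± 0.26 in the ovary line and -2.15 ± 0.26 in the testis line. Fgg, the fibrinogen gamma chain and a liver transcript, differed by -2.08 ± 0.70 (adjusted p = 0.0458). Liver markers were uneven among the arrays, with a list mean from 4.84 to 8.37 in the blank and from 5.00 to 9.51 in the estradiol arrays, and their part in the Fgg result was not tested. Leaving out a single array ended the Fgg call for 14 of the 18, with an adjusted p of up to 0.116 (without XX B replicate 3).

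Several falls differed from the testis line. Ptn, which encodes the heparin-binding growth factor pleiotrophin, moved in opposite directions. In the ovary line it went from 11.28, 11.97 and 12.64 in the blank arrays to 8.98, 10.01 and 10.68 with estradiol, a difference of -2.19 ± 0.33 (adjusted p = 4.14e-06) with no overlap. In the testis line it rose by 2.65 ± 0.32 (adjusted p = 4.39e-08), and the lines differed with an adjusted p of 4.97e-10. The lines started from different blank levels, with means of 11.94 in the ovary line and 7.93 in the testis line. With estradiol the means lay closer, at 9.82 and 10.51. The 4 estradiol and blank pairs of the ovary line that shared a slide and a genotype all showed the fall, by -2.99 to -2.23.

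Cited1, a transcriptional coregulator counted in the brown and beige list, was detected on 8 of 8 blank and 0 of 10 estradiol arrays, at least 2.41-fold lower. In the testis line it differed by 0.51 ± 0.19 (adjusted p of the difference 4.44e-08). Which cells of the pad held its transcript was not tested. Dnaic1, a dynein chain of motile cilia, was detected on the same counts of arrays and was likewise at least 2.41-fold lower. Fxyd2, a regulator of the sodium pump, differed by -1.96 ± 0.27 against -0.03 ± 0.27 on 1 of its 3 probes, and the other two, one of them brighter, were not called (0.59 ± 0.25 and -0.48 ± 0.20). Hsd11b2, which inactivates corticosterone, was the opposite case. It differed by 0.04 ± 0.16 in the ovary line and rose by 2.03 ± 0.16 in the testis line (adjusted p of the difference 2.90e-08), whereas Hsd11b1, which regenerates corticosterone, fell in both lines, by -0.89 ± 0.18 and -2.15 ± 0.18 on the log2 scale (adjusted p of the difference 0.00241). The blank means of Cited1, Dnaic1 and the Fxyd2 probe that fell were 7.05, 7.05 and 8.04 in the ovary line. In the testis line they were 5.16, 4.82 and 5.5, near background, so a fall of these genes could hardly be seen there.

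Both receptors tested were called lower. Esr1, estrogen receptor alpha, went from 7.27, 8.77 and 9.61 to 6.84, 7.40 and 8.18 with estradiol, a difference of -1.07 ± 0.26 (adjusted p = 0.00390), and the arms overlapped. Gper1, the membrane receptor, differed by -0.81 ± 0.24 (adjusted p = 0.0182) and was detected on 4 of 8 and 2 of 10 arrays. With slide as a fixed block Gper1 was not called (-0.67, adjusted p = 0.0939). Esr2, estrogen receptor beta, was not tested because its probe did not pass the filter. Pgr, the progesterone receptor and a classical estrogen target, rose by 1.198 ± 0.166 (adjusted p = 6.11e-07), from 4.73, 5.18 and 5.96 to 5.81, 6.51 and 6.93, with detection on 1 of 8 and 9 of 10 arrays.

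Of 32 tested genes of estrogen receptor signalling and its known targets, 5 rose and 5 fell, with a median of 0.02. Besides Areg, Greb1, Krt19, Pgr, Esr1 and Gper1, called genes were Stc2, a secreted glycoprotein (1.19 ± 0.22), Igfbp5, an IGF binding protein (-0.51 ± 0.16), Igf1, the growth factor (-0.71 ± 0.16), and Wnt4, a mammary signalling ligand (-1.18 ± 0.36, adjusted p = 0.0267), which was not called without any 1 of 6 arrays (adjusted p up to 0.103, without XX B replicate 1). Of 22 tested nuclear receptors 2 rose and 2 fell, near the share over all probes (5.13% each way). They were Pgr and Vdr, the vitamin D receptor (0.95 ± 0.24), and Esr1 and Nr1d1, a clock repressor (-0.68 ± 0.22). Among 21 tested enzymes of steroid, retinoid and arachidonate metabolism 3 rose, Akr1cl, Akr1c14 (0.67 ± 0.19) and Srd5a3 (0.57 ± 0.14), and 4 fell, Cyp2f2, Hsd11b1, Hsd17b7 (-0.50 ± 0.16) and Cyp4b1 (-0.49 ± 0.17). The calls of Nr1d1, Hsd17b7 and Cyp4b1 were lost without any 1 of 9, 11 and 11 arrays, with adjusted p up to 0.0970, 0.0905 and 0.212. The enzyme list was chosen with earlier results of these data known. It holds the gene with the largest increase, Akr1cl, and the one with the largest fall, Cyp2f2, so its counts are a description only.

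Macrophage genes rose. Of 12 tested genes 9 rose and 0 fell, with a median of 1.07, and 8 rose and 0 fell in the testis line, with a median of 1.22. Over all probes 5.13% were called each way in the ovary line, and 878 of 14636 were called higher in the testis line. C1qa and C1qb, chains of the first complement component, rose by 1.69 ± 0.29 and 1.48 ± 0.23, Trem2, a lipid-sensing receptor, by 1.63 ± 0.35 and Cd68, a lysosomal protein, by 1.44 ± 0.38. The list mean ran from 8.62 to 10.26 in the blank arrays and from 9.34 to 10.37 with estradiol. The highest blank array, XY- B replicate 3, overlapped the estradiol arrays, and the next blank array was at 9.18. The interferon-inducible genes Isg15 (1.63 ± 0.41), Ifit3 (1.40 ± 0.29) and Irf7 (1.37 ± 0.33) also rose among 19 tested genes of antigen presentation and interferon response, and Cxcl9, a chemokine, fell (-0.86 ± 0.18).

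Of 10 tested endothelial genes 5 fell and 0 rose (median -0.47), where 5.13% of all probes were called each way. Cdh5, vascular cadherin, differed by -1.23 ± 0.20 with no overlap, 8.09 to 8.79 against 8.87 to 10.59. Cldn5, a tight junction protein, differed by -0.95 ± 0.21, Esam, an adhesion molecule, by -0.78 ± 0.13 and Tie1, a receptor kinase, by -0.67 ± 0.17. Of 12 tested genes of fibroblasts and preadipocytes 2 rose and 0 fell, Pdgfra, the growth factor receptor that marks preadipocytes (0.85 ± 0.19), and Ly6a, a stem cell antigen (0.75 ± 0.16). In the testis line 7 of the 12 rose, where 878 of all 14636 probes were called higher. The test between lines called none of the 12. Mbp, a myelin protein gene of Schwann cells, fell by -1.40 ± 0.35 on the log2 scale, and without XX B replicate 1 it was not called, at -1.11 (adjusted p = 0.0590).

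Of 26 tested genes of extracellular matrix 4 rose, 2 fell and the median was 0.20. Over all probes 5.13% were called each way, and the count of falls is near that share. In the testis line 12 rose and 0 fell, where 878 of all 14636 probes were called higher. The test between lines called none of the 26. Timp1, an inhibitor of matrix proteases, rose by 2.31 ± 0.50, from 6.08, 7.497 and 8.42 to 8.36, 9.82 and 10.81. Mmp14 and Mmp2, a membrane-bound and a secreted metalloprotease, rose by 0.79 ± 0.16 and 0.78 ± 0.22. The related inhibitors Timp4 and Timp3 differed by -1.17 ± 0.30 and -0.52 ± 0.16. Without XX B replicate 1 Mmp2 (adjusted p = 0.0535) and Timp3 (adjusted p = 0.143) were not called, nor Timp3 without any 1 of 4 other arrays.

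**Figure D4:**
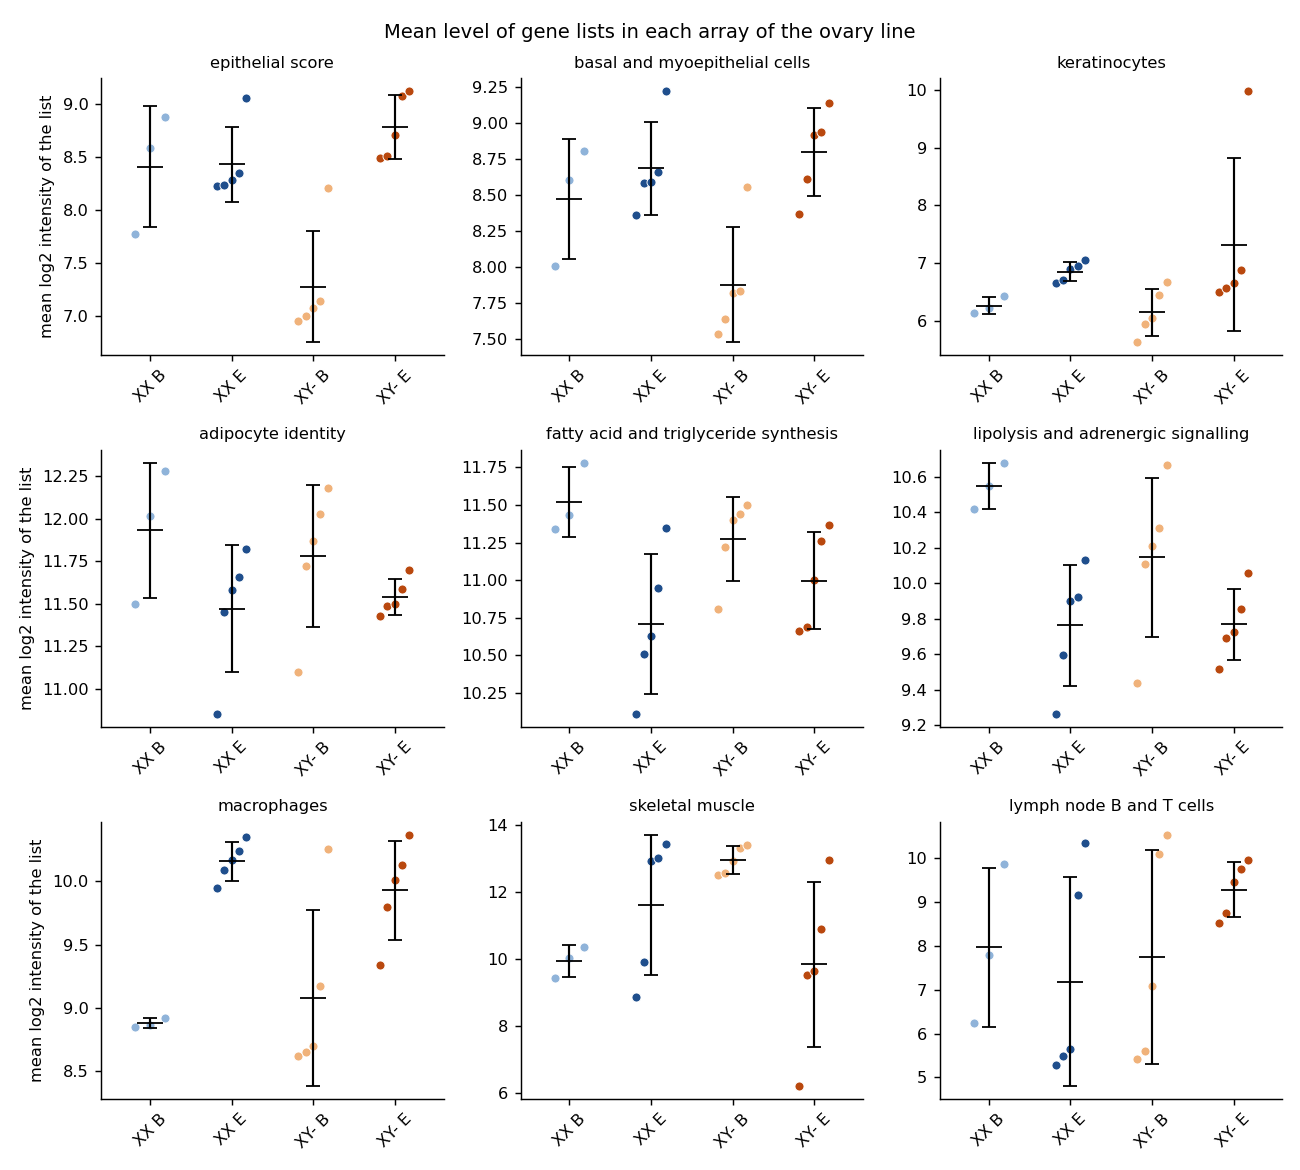
Mean normalised log2 intensity of 9 gene lists in each of the 18 arrays, by genotype and treatment; points are arrays, and the bar and whiskers are the mean and SD of the group. The epithelial score is low in 4 of the 5 XY- B arrays (6.95 to 7.14), macrophage means are higher with estradiol except in XY- B replicate 3, and muscle and lymph node means vary by several log2 units within groups.

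The response was set out by sex chromosomes. In XX mice 1221 probes were called (8.34%) and in XY- mice 538 (3.68%). With the same sign in both, 228 probes were called, 18.7% of the XX calls and 42.4% of the XY- calls, and 1 had opposite signs. The 2 comparisons share no arrays. Of the 1502 probes called over both genotypes, 1472 had the same sign in XX and XY-. That contrast is the mean of the XX and XY- differences, so its calls favour probes of the same sign. The count therefore does not measure agreement between the genotypes. The XX comparison has 3 blank arrays, and without XX B replicate 1 it called 427 probes. Without XX B replicate 3 the count was 754. With median centring it called 548, 330 higher and 218 lower, in place of 564 higher and 657 lower. The XY- calls were 384 higher and 154 lower, and the count was 341 without XY- B replicate 2.

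Akr1cl rose by 5.83 ± 0.56 in XX and 6.78 ± 0.49 in XY- mice, Greb1 by 3.33 and 3.77, and Areg by 3.62 and 5.33. The epithelial genes were less even. None of the 22 luminal genes was called in XX mice (median difference 0.00), and 12 rose in XY- mice (median 1.14). Krt8 differed by 0.96 in XX mice (adjusted p = 0.544) and rose by 3.12 in XY- mice (adjusted p = 0.00538). The test of the difference between XX and XY- called none of the 22. The epithelial score ran from 7.77 to 8.88 in XX B, 8.23 to 9.06 in XX E, 6.95 to 8.21 in XY- B and 8.49 to 9.13 in XY- E arrays, so the XY- B arrays were low and the estradiol arrays of both genotypes overlapped.

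Of the 27 fatty acid synthesis genes 9 were called lower and 1 higher in XX mice (median -0.82), and in XY- mice 0 were called lower and 1 higher (median -0.33). Endothelial genes had 5 of 10 called lower in XX and 1 in XY- mice. No gene of these 2 lists was called in the test of the difference.

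**Figure D5:**
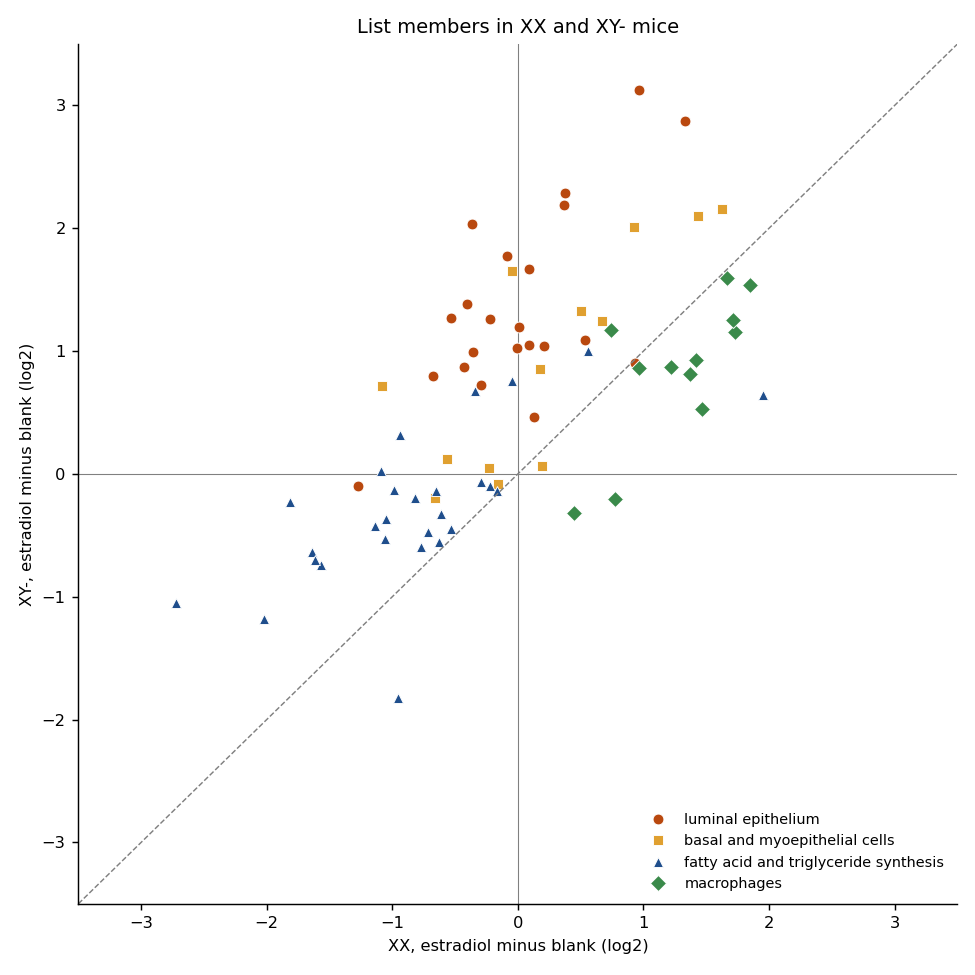
Estradiol minus blank difference in XX mice (horizontal, log2) against XY- mice (vertical, log2) for the tested genes of 4 lists; the dashed line marks equal differences. Most luminal genes lie above the dashed line, with XY- differences centred on 1.14 and XX differences on 0.00, and macrophage genes lie along it or below.

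The direct test of XX against XY- called 37 probes (0.253%). The smallest p-values were those of Stc2, a secreted glycoprotein, and Fzd4, a Wnt receptor. Stc2 differed by 0.05 in XX and rose by 2.33 in XY- mice, and Fzd4 rose by 1.57 in XX and differed by -1.47 in XY- mice, each with an adjusted p of 0.0307 for the difference. The count of 37 ran from 0 to 565 when single arrays were left out, and neither gene was called without any 1 of 8 arrays (adjusted p up to 0.114).

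Transcripts of neighbouring tissues varied between arrays. No skeletal muscle gene of 13 was called, yet the list mean ran from 9.41 to 10.34 in XX B, 8.85 to 13.42 in XX E, 12.50 to 13.40 in XY- B and 6.20 to 12.95 in XY- E arrays, a median difference of 1.81 in XX and -3.00 in XY- mice. Of 13 lymph node genes none was called, and their mean ran from 5.42 to 10.53 in the blank and from 5.28 to 10.33 in the estradiol arrays. Of 6 tested keratinocyte genes 2 rose, where 5.13% of all probes were called higher. They were Krt15, a basal keratin of hair follicles (at least 2.66-fold higher), and Dmkn, the skin protein dermokine (1.67 ± 0.51). Dmkn was not called without XY- E replicate 1, XY- B replicate 2 or XX B replicate 1 (adjusted p up to 0.0978). The keratinocyte mean was 9.98 in XY- E replicate 1, where no other of the 18 arrays was above 7.06. With the muscle, lymph node and liver means as covariates 2108 probes were called, 988 higher and 1120 lower, and 1487 of them were calls of the fit without covariates.

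Slides were only partly shared between the groups, as 3 of the 8 slides held estradiol arrays of the ovary line without blank arrays and 3 the reverse. The 4 pairs of estradiol and blank arrays that shared slide and genotype gave differences of 4.97 to 7.47 for Akr1cl, 3.23 to 3.83 for Greb1, 3.43 to 6.67 for Tph1, 2.39 to 5.55 for Areg, -4.49 to -2.54 for Cyp2f2, -4.92 to -0.91 for Cidea and -3.10 to -0.56 for Lep. For Krt8 the pairs ran from 0.44 to 2.63. With slide as a block 1238 probes were called in the ovary line, 627 higher and 611 lower. On the 2 slides that hold estradiol and blank arrays of every genotype, 840 were called, 361 higher and 479 lower. Of these, 642 were calls of the full set.

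Calls of genes given above were lost under other scalings and slide settings, each with the same direction except Esrp1 on the 2 shared slides. With median centring these were Fgg, Wnt4, G6pdx, Ptger3, Ppargc1a, Apoe, Spint1, Dmkn, Tie1, Pdgfra, Mmp14, Mmp2, Timp4, Timp3, Srd5a3, Hsd17b7, Cyp4b1, Nr1d1 and Acads, with adjusted p from 0.0505 for Mmp14 to 0.367 for Cyp4b1, and the genotype differences of Stc2 and Fzd4. With slide as a fixed block Wnt4, Gper1, Ppargc1a, Krt8, Esrp1, Dmkn, Cd68, Hsd17b7, Nr1d1 and the genotype difference of Stc2 were not called, with adjusted p from 0.0506 for Krt8 to 0.279 for Esrp1. The 2 shared slides hold fewer arrays, and there 39 of 104 called results were lost with the same direction. Esrp1 lost its call there as well, with its sign reversed (-0.0820, adjusted p = 0.873). Those of synthesis and adipocyte genes were Elovl6, Acss2, Insig1, Gpam, G6pdx, Pnpla2, Ptger3, Kcnk3, Decr1, Acads and Cpt2. Those of epithelial and skin genes were Krt19, Krt7, Col17a1, Trp63, Dmkn and the luminal genes St14 and Spint1. Those of other cell types were C1qa, Trem2, Cd68, Cxcl9, Tie1, Pdgfra, Mbp, Mmp14, Mmp2 and Timp3. Apoe, Srd5a3, Hsd11b1, Hsd17b7, Vdr, Nr1d1, Mcm7, Stc2, the genotype differences of Stc2 and Fzd4 and the line difference of Hsd11b2 were lost as well. With the epithelial score as a covariate G6pdx, Insig1, Apoe, Krt8, Dmkn, Mmp2, Akr1c14, Vdr, Nr1d1, Decr1 and the genotype differences of Stc2 and Fzd4 were not called. The luminal genes St14, Spint1 and Esrp1 lost their calls there too (adjusted p = 0.226, 0.337 and 0.429). Spint1 and Esrp1, like Krt8, are members of the score.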

How the data were processed

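For every probe and each of 55 adipose arrays the deposited table gives a linear bead intensity, a detection p-value and a bead standard error, per the file headers. The 55 standard error columns were not used. The deposited intensity values looked uncorrected, with a lowest value of 92.6. The submitters' processing notes name lumi, and its role and the genome build are not given in the sources used here. From the deposited intensity and p-value columns, limma 3.58.1 in R 4.3.3 removed background (normexp, control statistics inferred from detection), added 16, quantile normalised the arrays and gave log2 levels. Probes with a detection p under 0.01 in at least 3 of 55 arrays were tested.

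All 12 adipose groups were fitted with lmFit and eBayes (43 residual degrees of freedom). The ovary-line contrast is the mean of the XX and XY- differences, so it can depart slightly from the difference of the arm means. Tests on simulated data preceded the fits. Current symbols came from the RefSeq table of GRCm38.p6, which named 97.2% of the tested probes, and promoters from the same assembly. Array numbers limit the precision. Results that need withheld items are not reported here. Lists and named genes were chosen with earlier results of these data known, so counts of list members are descriptions. Genes with large differences such as Akr1cl, Cyp2f2, Tph1 and Adamts19 are members of lists. Genes were named as the 12 largest called increases and 12 largest falls of 1 sign in XX and XY-, 6 of each among probes that did not track the epithelium, up to 4 called members of each list in each direction, receptors and marker genes, and the 8 and 2 smallest p of the line and sex chromosome tests. Alternatives covered scaling, background, filter, slide, array weights, covariates, the disputed label and each array left out.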

Additional observations from a re-analysis of the deposited data

Results flagged for a closer look

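Differences between the ovary line and the testis line, tested as an interaction in limma, were called for 25 of the 104 named probes. Some of these probes were named for the smallest p in this same test, and others for large ovary-line differences. The count is therefore raised by the choice of probes and is a description only. Over all 14636 probes the test called 122, or 0.834%. Testis minus ovary values not printed above were -5.89 for Tph1, -4.66 for Aoc1, -4.56 for Areg, -4.25 for Cxcl15, -3.58 for Sftpd, -3.55 for Krt6b, -3.42 for Esrrb, -3.18 for Lypd3, -2.43 for Sfn, -2.40 for Tmprss11a, -2.13 for Dpep2, -2.05 for Krt15, -1.84 for Phactr1, -1.80 for Trp63, -1.29 for Stc2, -1.26 for Hsd11b1 and -1.19 for Lamb3. On the other side stood 4.84 for Ptn, 2.66 for Npr3, 2.40 for Cited1, 2.17 for Dnaic1, 1.99 for Hsd11b2, 1.92 for Fxyd2, 1.57 for Lep and 1.28 for Adra2a. The adjusted p ran from 3.85e-12 for Phactr1 to 0.0320 for Lamb3. XX minus XY- differences were called for Dnaic1 at -1.70, Stc2 at -2.27 and Fzd4 at 3.04, each with an adjusted p of 0.0307. Dnaic1 was detected on no estradiol array, with means there of 5.015 in XX and 5.102 in XY- mice. Its blank means were 8.053 in XX and 6.442 in XY- mice, so a larger fall in XY- mice could hardly be seen.

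Single arrays far from the others of their group, by the gap to the nearest array relative to the group's range, were found in 39 of 384 group values of genes and list means (10.2%), where chance gives about 1 in 20. The group of 3 XX B arrays was not examined.

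Among XX E arrays, replicate 2 was the highest for Esrrb at 9.87, Lamb3 at 9.88 and Lypd3 at 10.21, and the lowest for Pdgfra at 11.23 and Adamts19 at 8.15. Its list means were the highest for luminal epithelium (8.88), the epithelial score (9.06) and the estrogen receptor list (9.22). Replicate 1, the array whose label fields disagree, was the highest for Fgg (8.68) and for the liver list (9.51, the next array being at 5.26) and the lowest for Fxyd2 (4.91). Replicate 3 was the lowest for Gpam (8.36), Pparg (11.27), Irf7 (8.33) and the list of mitochondrial fatty acid oxidation (9.56).

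Among XY- B arrays, replicate 5 was the highest for Lamb3 (8.25), Krt18 (9.65), luminal epithelium (7.90), basal and myoepithelial cells (8.56) and the epithelial score (8.21), and replicate 3 for C1qb (12.84).

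Among XY- E arrays, replicate 3 was the highest for Ptn (10.32) and the lowest for Krt6b (6.07), Igf1 (10.04), Rarres2 (10.79), Trem2 (6.72), Ly6a (13.78), Timp1 (8.36), Mmp14 (11.82), Mmp2 (12.24) and Isg15 (8.87), and for the means of fibroblasts and preadipocytes (9.85) and extracellular matrix (9.24). Replicate 1 was the highest for Fgg (7.24), Dmkn (10.24) and the keratinocyte list (9.98), replicate 2 for Fzd4 (7.19) and the list of steroid, retinoid and arachidonate enzymes (8.81), and replicate 5 for Hsd11b2 (5.18).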

How the results depend on the processing

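The ovary-line count of 1502 was 915 with median centring, 840 on the 2 shared slides and 2402 with array weights, and stayed within 1.5 times under the other alternatives, running from 1046 to 1699 when 1 array was left out. The XX count of 1221 was 548, 133 and 3186 under the same 3 settings, 793 with XX E replicate 1 taken as testosterone, 2634 with muscle, lymph node and liver means as covariates and 2894 with the epithelial score added (427 to 1267 without 1 array). The XY- count of 538 was 329, 171 and 1550 under the same 3 settings, 223 with the epithelial score as a covariate and 199 with all 4 means (341 to 595 without 1 array). The count of 122 for the difference between lines was 280 with array weights, and 106 to 144 without 1 array. The sex chromosome count of 37 was 0 with median centring, on the 2 shared slides, with XX E replicate 1 as testosterone and with the epithelial score as a covariate, 1 with only the groups compared, 1 without 3 arrays, 9 with 4 covariates, 14 without a filter, 18 and 240 with slide as a fixed and a random block, 90 with 50 added, 117 with detection in 8 of the 18 arrays, 118 without background correction, 502 with muscle, lymph node and liver covariates and 1750 with array weights (0 to 565 without 1 array). At an unadjusted p under 0.05 2314 probes passed for it. Epithelium-tracking probes called higher were 49 at a correlation of 0.5, 8 at 0.7 and 24 at 0.6. The 3-array and 4-covariate settings were chosen after seeing the data: the arrays were XX E replicate 1, XY- B replicate 1 and XY- E replicate 1, and without them 1300 probes were called in the ovary line. The causes were not tested.

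Of 113 gene results, 57 kept their direction and their side of the threshold under every alternative run, and 21 of 104 called ones lost the call without 1 array. Reversals of sign met uncalled genes, and Esrp1 (called with every array), on the 2 shared slides (-0.0820). Fzd4 was at -0.0462 without background correction, -0.0298 with 50 added, -0.13 with array weights and -0.0219 without 3 arrays (-0.10 to 0.16 without 1 array). Hsd11b2 was at -0.18 on the 2 shared slides and -0.00789 with XX E replicate 1 as testosterone (-0.0387 to 0.20 without 1 array). With the epithelial score as a covariate Krt18 was at -0.54 and Csn3 at -0.80, and with all 4 covariates Krt18 was at -0.42, Csn3 at -1.02 and Krt14 at -0.22. Fabp4 ran from -0.61 to 0.00929 without 1 array. No paired analysis was possible because the labels carry no replicate numbers, and slide was used as a block instead. Probes near background limit Greb1, Pgr, Tph1 and other dim genes, whose differences are understated.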
